A study of Mus musculus with 24 samples.

Results

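Endothelial cells keep their identity through a small set of transcription factors, and 10 of these genes were followed here across aortic and skeletal muscle endothelium of mice: the SoxF genes Sox7, Sox17 and Sox18, the ETS genes Erg and Fli1, the zinc-finger genes Gata2 and Gata6, the basic helix-loop-helix gene Tal1, and the Krüppel-like factors Klf2 and Klf4. The genes were chosen by name, and their probes were found through the RefSeq accession that the arrays give each probe. A probe was found in this way for 9 of the 10 genes, out of 18539 gene symbols matched to a probe, and Tal1 is not analysed here. Sox7, Sox18, Erg and Klf4 each had 1 probe, Fli1, Gata2 and Klf2 had 2, and Sox17 and Gata6 had 3. The brightest probe of each gene, which was the same probe in aorta and muscle, carried its values. These 9 probes were well above background on 24 of 24 arrays and saturated on 0.

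The arrays came from 8 groups of 3, formed by 2 tissues, 2 genotypes and 2 diets. Male C57BL/6 mice (WT) and galectin-3 (-/-) mice (KO), which carry a targeted deletion within Lgals3 in every cell, ate a high-fat diet (HFD) with 60% fat calories or a chow diet with 12% for 8 weeks, beginning at 8 weeks of age. Each array held amplified RNA from live CD105+/CD45- cells sorted from a pool of 3 to 4 animals, and the aorta and the leg muscles of a pool were taken in the same experiment. CD105 is endoglin, a surface glycoprotein of endothelium, and CD45 marks leukocytes. Each tissue of each of 3 experiments was hybridised on a slide of its own, with the 4 groups of genotype and diet side by side. A difference between tissues can therefore not be told apart from a difference between slides. Experiment 1 was scanned in a session of its own, and experiments 2 and 3 shared another.

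A level is the log2 of an array's processed intensity for a probe over that array's 75th percentile, so that 0 stands for the 75th percentile and 1 unit for a doubling. On each array 59.5% to 75.7% of spots read well above background, and its 75th percentile ran from 2390 to 5938 intensity units. The sorted cells carried the endothelial label: all 20 pan-endothelial genes examined, among them Cdh5, Pecam1 and Tek, were well above background on every array. Their mean level was 3.80 in aorta (range 2.66 to 4.55) and 4.88 in muscle (4.62 to 5.18), with no overlap. Genes of other cells were measured in the same sorts and moved with the tissue. The mean of 8 fibroblast genes was 5.03 in aorta (4.32 to 5.75) against 1.59 in muscle (0.10 to 3.66), and the mean of the skeletal muscle fibre genes was -4.70 in aorta (-5.50 to -1.95) against 1.65 in muscle (0.15 to 3.40). The mean of the immediate early genes, which respond within minutes to handling and digestion of a tissue, was 3.36 in aorta (3.01 to 3.75) and 2.71 in muscle (2.09 to 3.17). Pericyte genes had means of 2.14 and 3.19, lymphatic endothelial genes 0.03 and -2.01, adipocyte genes 0.23 and -1.22 and macrophage genes -2.73 and -3.04.

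The genotype labels could not be read from the Lgals3 probe, whose position relative to the deletion is not analysed here: its level was higher in KO than in WT in 11 of 12 pairs of arrays. A set of 31 probes that separated the genotypes in experiments 2 and 3, placed on a scale where 0 is the WT mean and 1 the KO mean, put the WT arrays of those experiments between -0.12 and 0.07 and the KO arrays between 0.89 and 1.13. The chow arrays of experiment 1, which did not serve to choose these probes, lay near their labels: 0.04 for aorta WT, 1.02 for aorta KO, 0.07 for muscle WT and 0.91 for muscle KO. The 4 HFD arrays of experiment 1 fell between: 0.20 for aorta WT, 0.40 for aorta KO, 0.45 for muscle WT and 0.43 for muscle KO. The differences described below for HFD and between tissues are therefore also given without experiment 1.

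SoxF proteins bind DNA through a high mobility group domain and take part in arterial, venous and lymphatic identity. Erg and Fli1 are ETS factors that bind a GGAA core in many endothelial enhancers and keep junctional genes such as Cdh5 active. Gata2 serves endothelial and blood progenitor programmes, while Gata6 is also a factor of heart, mesoderm and vascular smooth muscle. Klf2 and Klf4 are induced by laminar blood flow through the MEK5-ERK5 kinases and their MEF2 partners, raise genes such as Nos3 and Thbd and restrain adhesion and clotting genes such as Vcam1 and F3.

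The proximal promoters of the flow-responsive pair are shown because the MEF2 element through which ERK5 acts lies close to the Klf2 start site. Both are the 250 bases before the RefSeq start on GRCm38.p6, read 5′ to 3′ along the gene. Klf2 lies on the plus strand at chr8:72318812-72319061 and Klf4 on the minus strand at chr4:55532476-55532725. Capitals mark the match to the MEF2 consensus and the CACCC box that Krüppel-like factors bind, which in Klf2 is read on the opposite strand as GGGTG.
Klf2: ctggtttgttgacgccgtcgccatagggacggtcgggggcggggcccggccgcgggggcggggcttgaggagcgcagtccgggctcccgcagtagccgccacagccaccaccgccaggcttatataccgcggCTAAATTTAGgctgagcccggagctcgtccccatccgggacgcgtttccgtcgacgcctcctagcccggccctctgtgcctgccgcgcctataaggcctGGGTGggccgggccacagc
Klf4: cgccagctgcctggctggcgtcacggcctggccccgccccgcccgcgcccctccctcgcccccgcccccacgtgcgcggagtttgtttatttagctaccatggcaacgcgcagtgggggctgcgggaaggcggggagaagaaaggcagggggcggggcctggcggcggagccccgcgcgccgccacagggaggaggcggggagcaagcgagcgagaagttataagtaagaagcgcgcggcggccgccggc
The Klf2 window held 1 MEF2 consensus, 118 to 109 bases before the start, and 1 CACCC box, and the Klf4 window held neither. Searched on both strands, the MEF2 consensus occurred in 2.92% and CACCC in 52% of 32851 promoter windows of this length. RefSeq promoters were at hand for 5 of the 10 genes, 9 windows in all. Among the other windows, 1 of the 3 Erg promoters held the MEF2 consensus, 16 to 7 bases before its start. The motifs did not overlap, and a match is a string of letters and not a measured binding site.

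Gata6 was the member that set the vascular beds apart most plainly. In aortic endothelium its level was 4.37, 4.09 and 4.36 in WT on chow, 4.26, 4.11 and 4.20 in WT on HFD, 3.71, 3.93 and 4.61 in KO on chow and 4.12, 4.11 and 4.36 in KO on HFD. In muscle endothelium the same groups read 0.89, 0.80 and 2.18, then 0.88, 1.26 and 1.73, then 1.06, 0.77 and 1.50, and last 1.28, 0.18 and 1.35. Every aortic array lay above every muscle array, which held for 3.54% of probes. The mean difference, aorta minus muscle, was 3.03 ± 0.15 (SE) on the log2 scale, an 8.16-fold higher level in aorta (adjusted p = 5.65e-07, limma), and the 12 pools gave differences from 2.18 to 3.93. The difference was 2.98 in WT on chow, 2.90 in WT on HFD, 2.97 in KO on chow and 3.26 in KO on HFD, and a further probe of the gene, well above background on 11 of 12 muscle arrays, gave 2.83. The third probe was well above background on 1 of 24 arrays and was not tested. Other cells that use Gata6 were measured through their own genes. All 8 fibroblast genes were higher in aorta (median 3.28), whereas of 10 smooth muscle genes 1 was higher and 6 were lower, with a mean level of 0.47 in aorta (range -0.01 to 1.15) against 1.01 in muscle (0.11 to 1.41). Mesothelial genes had means of -6.05 and -6.79. Of 2 mesothelial genes tested, 1 was called higher and 1 lower in aorta. Wt1, singled out after its values were seen, was the higher and was well above background on 12 of 12 aortic and 5 of 12 muscle arrays. Msln was the lower, well above background on 4 of 12 aortic and 9 of 12 muscle arrays. The part of these cells in the Gata6 difference was not tested.

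All other measured members were lower in aortic than in muscle endothelium, so that 8 of 9 were lower and 1 was higher past an adjusted p of 0.05. Over all 27344 probes tested, 56.3% were called, 38.3% lower in aorta and 18% higher, so that 31.9% of the calls were higher, a share that was 56.4% on the scale of the deposited normalized table. The median difference of the members was -1.23 against -0.27 for all probes. Without experiment 1, 8 of 9 were called (41.4% of probes), with differences of -0.65 to -1.96 for those below 0 and past the threshold and 3.00 for Gata6. In bulk RNA of this kind, fewer cells of a type and less RNA per cell cannot be told apart.

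**Figure D1:**
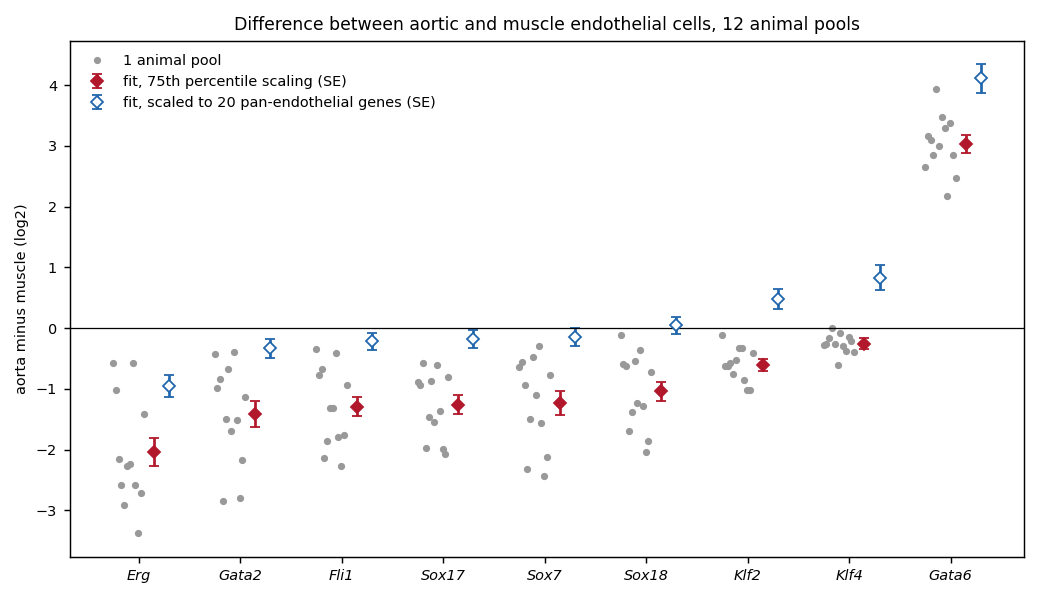
Difference in log2 level, aorta minus muscle, for each of the 9 measured genes. Each grey point is 1 of 12 pools of animals, filled diamonds are limma estimates with their SE on the scale of the 75th percentile, and open diamonds are those after scaling to 20 pan-endothelial genes. Gata6 lies between 2.18 and 3.93, while the points of the other genes lie below 0 except for 1 pool of Klf4.

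Erg, an ETS factor that maintains endothelial junctions and represses inflammatory genes, showed the largest fall. Its aortic levels were -3.02, -1.50 and -2.70 in WT on chow, -4.21, -3.64 and -2.54 in WT on HFD, -1.83, -1.83 and -2.37 in KO on chow and -3.55, -4.83 and -3.31 in KO on HFD. Its muscle levels were -0.78, -0.92 and -0.12, then -0.83, -0.93 and -1.13, then -1.25, -0.81 and -0.22, and last -0.96, -1.91 and -1.04. The highest aortic arrays, all on chow, reached the lowest muscle array. Erg fell by 2.04 ± 0.23 (SE) on the log2 scale, 4.10-fold, in aorta against muscle (adjusted p = 5.55e-05, limma) and was lower in aorta in 12 of 12 pools. The other ETS member, Fli1, which acts beside Erg in endothelium and megakaryocytes, ran from 2.06 through a median of 3.41 to 4.50 in aorta and from 4.20 through 4.79 to 5.15 in muscle. It fell by 1.30 ± 0.15, 2.46-fold (adjusted p = 8.04e-05), and its other probe fell by 1.56. Platelet and megakaryocyte genes, which share Fli1, had a mean of -2.64 in aorta and -2.30 in muscle.

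The SoxF genes fell together in aorta, by 1.04 to 1.26 on the log2 scale. Sox17, linked above all to arterial endothelium, ran from 2.67 through a median of 4.18 to 4.77 in aorta and from 4.66 through 5.22 to 5.59 in muscle. It fell by 1.26 ± 0.15, 2.39-fold (adjusted p = 8.27e-05, limma), on the probe used and by 1.94 on another. The remaining probe was well above background on 6 of 12 aortic and 12 of 12 muscle arrays. Sox7 ran from 2.11 through 3.57 to 4.27 in aorta and from 4.14 through 4.49 to 5.21 in muscle, and fell by 1.23 ± 0.20, 2.34-fold (adjusted p = 5.24e-04). Sox18, known for its part in lymphatic and vascular development, ran from 3.72 through 4.93 to 5.89 in aorta and from 5.44 through 5.82 to 6.33 in muscle, and fell by 1.04 ± 0.16, 2.05-fold (adjusted p = 3.70e-04). All 3 genes were lower in aorta in 12 of 12 pools, as were 13.7% of probes, while the outermost arrays of the tissues overlapped for each.

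Gata2, the GATA factor of endothelium and blood progenitors, moved opposite to Gata6. It ran from 2.05 through a median of 3.48 to 4.66 in aorta and from 4.59 through 4.89 to 5.33 in muscle. It fell by 1.42 ± 0.21 on the log2 scale, 2.67-fold (adjusted p = 3.57e-04, limma), with its other probe at -1.53. Other cells known to use Gata2 were read through their own genes: the mast cell genes had a mean of -4.35 in aorta and -4.35 in muscle, with 0 of 6 called, and the erythroid and progenitor genes -2.20 and -1.78, with 2 of 6 higher and 3 lower in aorta.

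The flow-responsive factors differed less between the beds. Klf2 ran from 5.35 through a median of 5.81 to 6.46 in aorta and from 6.04 through 6.44 to 6.85 in muscle. It fell by 0.60 ± 0.10 on the log2 scale, 1.52-fold (adjusted p = 6.64e-04, limma), in 12 of 12 pools, and its other probe fell by 0.51. Klf4 ran from 4.45 through 5.09 to 5.34 in aorta and from 4.44 through 5.44 to 5.60 in muscle, so that the tissues overlapped almost wholly. It fell by 0.26 ± 0.08, 1.19-fold (adjusted p = 0.0257), in 11 of 12 pools, which is close to the all-probe median of -0.27. Its call was lost when experiment 1, 2 or 3 was left out (limma, adjusted p = 0.0614, 0.171 and 0.27), and on the scale of the deposited normalized table, where the all-probe median was -0.01, the difference was 0.01.

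Within single groups fewer members were called. Aorta minus muscle, Gata6 was higher in each of the 4 groups of genotype and diet. Lower in aorta were 3 members in WT on chow (Sox17, Erg and Fli1), 7 in WT on HFD, 0 in KO on chow and 7 in KO on HFD. Of all probes, 13.2%, 13.3%, 4.18% and 14.4% were called lower, 9.49%, 10.3%, 5.77% and 10.4% higher, and 22.7%, 23.7%, 9.95% and 24.8% in either direction, in that order. For KO on chow, the 8 lower members had differences of -0.23 to -1.25 (8 of 9 below 0), and a difference between this group and the others was not tested. Leaving out experiment 1 reduced the calls to 1 in each of WT on chow, WT on HFD and KO on HFD, leaving out experiment 2 to 2, 1 and 1, and leaving out experiment 3 to 1 in WT on chow. The share of all probes called in these 3 groups fell too, to 6.18%, 6.43% and 8.66% without experiment 1 and to 11.9%, 6.07% and 6.83% without experiment 2, and in WT on chow to 2.44% without experiment 3.

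How far the fall in aorta followed the endothelial genes as a whole was measured by setting each array to the mean of its 20 pan-endothelial genes, a scaling chosen after the values were seen, which moved every aorta-minus-muscle difference up by 1.08. On this scale Fli1 (-0.22), Sox17 (-0.18), Sox7 (-0.15), Gata2 (-0.34) and Sox18 (0.04) no longer passed, with adjusted p of 0.178, 0.284, 0.404, 0.075 and 0.791 from limma. Erg was still lower in aorta (-0.95, adjusted p = 0.000942) and Gata6 still higher (4.11, adjusted p = 5.9e-08). Klf2 (0.48, adjusted p = 0.0203) and Klf4 (0.83, adjusted p = 0.00359) turned to higher in aorta. On this scale 4 members were called, 3 higher and 1 lower in aorta, against 1 higher and 8 lower on the scale of the 75th percentile. Of all probes 71.6% were called on it, 95% of them higher, and the all-probe median was 0.81.

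Other genes of the same programmes, from lists named by function, are given for comparison. Of 26 other endothelial transcription factors, 17 were lower and 6 higher in aorta, with a median difference of -0.75. Foxc2 (4.55) and Nkx2-3 (2.43) were higher and Tcf15 (-2.00) lower. Hey2 was called higher too, but was well above background on 7 of 12 muscle arrays only, so no size is given. Foxc2 and Hey2 are factors of lymphatic valve and arterial identity. Of the 20 pan-endothelial genes, 18 were lower and 0 higher, with a median of -1.06. Tie1 (-2.05), a receptor kinase partner of Tek, and Esam (-1.67), a junctional adhesion molecule, fell the most, followed by Rasip1 (-1.62) and Nos3 (-1.54).

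Genes above and below Klf2 and Klf4 did not move as a single block. Of 10 genes of the MEK5-ERK5 and CCM pathway, 7 were lower in aorta and 0 higher (median -0.62), with Mef2a at -1.06, Map2k5, which encodes MEK5, at -0.96, Map3k3 at -0.84 and Mef2d, well above background on 11 of 12 aortic arrays, at -0.80. Of 12 genes known to be induced by the pair, 7 were lower and 2 higher (median -0.51): Nos3 fell by 1.54 on the log2 scale and Nppc, well above background on 7 of 12 aortic and 11 of 12 muscle arrays, was called lower, while Cyp1b1 rose by 6.80 and Ptgds by 1.22. Of 7 genes known to be repressed by them, 5 were higher in aorta and 1 lower (median 1.56). F3, the tissue factor that starts clotting, was higher by 6.94, the chemokine Ccl2 by 3.27 and the adhesion molecule Vcam1 by 1.56, while Angpt2 fell by 1.36. Among 11 other Krüppel-like factors, 7 were lower and 1 higher (median -0.66): Klf5 rose by 2.91, and Klf3, Klf13 and Klf7 fell by 0.94, 0.92 and 0.83. The fibroblast genes moved the same way as F3 and Klf5, with 8 of 8 higher in aorta (median 3.28), and 11 of 18 immediate early genes were higher with 0 lower (median 0.42). The part of either in these differences was not tested.

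**Figure D2:**
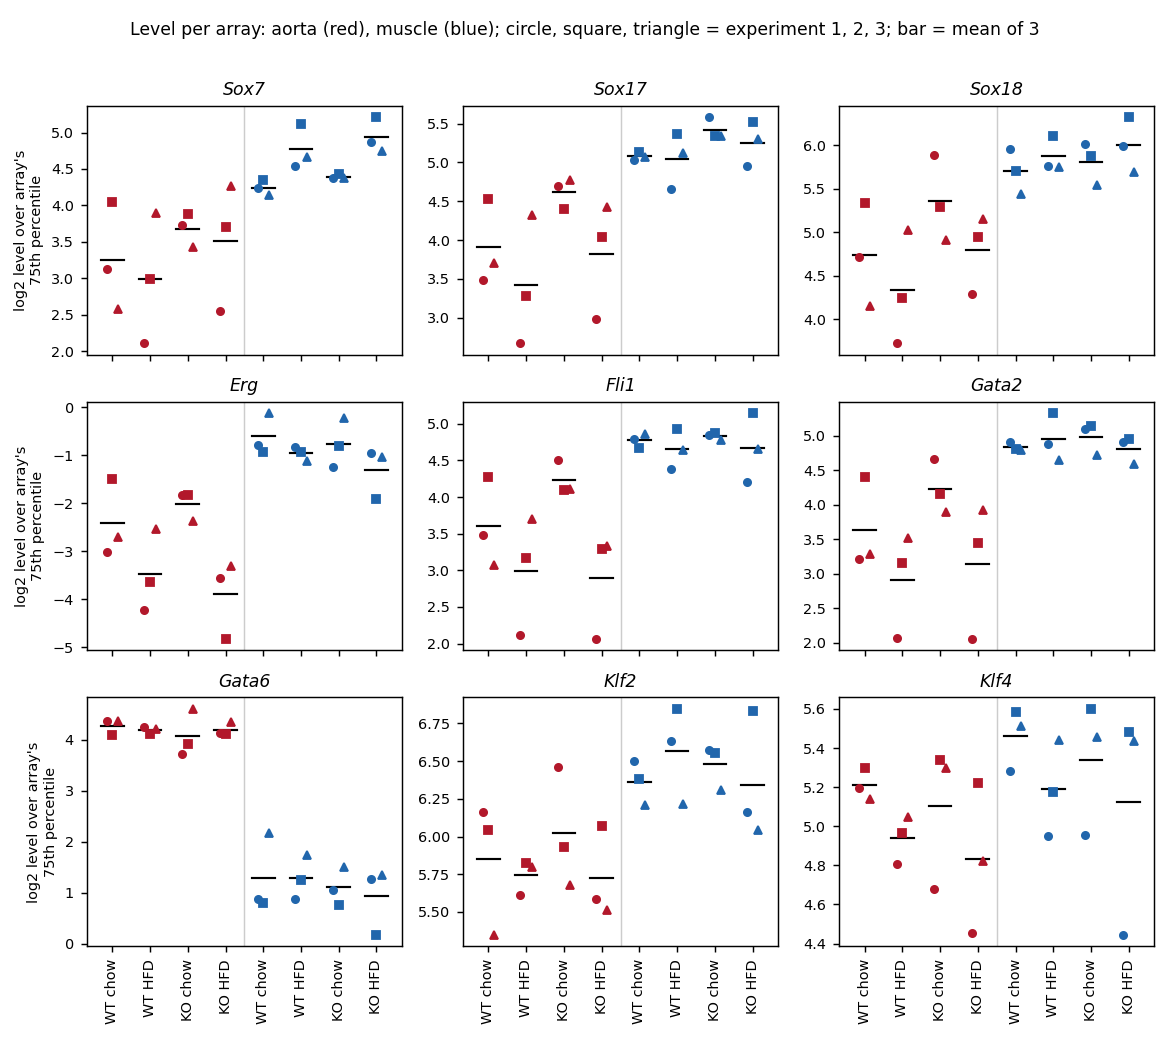
Log2 level of each of the 9 genes in the 8 groups of tissue, genotype and diet. Aortic arrays are red and muscle arrays blue, circle, square and triangle are experiments 1, 2 and 3, and the bar is the group mean. Gata6 is high in all aortic groups and low in all muscle groups, and the remaining genes show the reverse order except for Klf4, whose groups interleave.

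The order of the 8 groups followed tissue for 8 of the 9 genes: all 4 group means of a tissue lay on the same side of those of the other tissue. Only Klf4 mixed them. The share of all probes with such an order was not computed, and 56.3% of probes were called between tissues, so it is not shown to be particular to the members. Inside a tissue, neighbours in that order mostly overlapped. Sox17 in aorta was 4.62 ± 0.20 (SD, n = 3) in KO on chow, 3.91 ± 0.55 in WT on chow, 3.82 ± 0.75 in KO on HFD and 3.43 ± 0.83 in WT on HFD. Its muscle means were 5.42 ± 0.14, 5.08 ± 0.05, 5.26 ± 0.28 and 5.05 ± 0.36 for the same groups. No neighbouring pair of groups was free of overlap for Sox17.

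Fli1 and Gata2 took the same aortic order at the top, KO on chow before WT on chow. Fli1 in aorta was 4.24 ± 0.23 (SD, n = 3) in KO on chow, 3.61 ± 0.61 in WT on chow, 2.99 ± 0.80 in WT on HFD and 2.89 ± 0.72 in KO on HFD, and in muscle the same groups were 4.83 ± 0.05, 4.78 ± 0.09, 4.65 ± 0.27 and 4.67 ± 0.47. Gata2 in aorta was 4.23 ± 0.39, 3.63 ± 0.67, 2.91 ± 0.75 and 3.14 ± 0.97 for those groups, and in muscle 4.98 ± 0.23, 4.84 ± 0.06, 4.95 ± 0.34 and 4.81 ± 0.19. Sox18 in aorta was 5.36 ± 0.50, 4.73 ± 0.59, 4.33 ± 0.66 and 4.80 ± 0.45, and in muscle 5.81 ± 0.24, 5.70 ± 0.26, 5.87 ± 0.21 and 6.00 ± 0.32. The SDs of these 3 genes were 0.05 to 0.47 in muscle and 0.23 to 0.97 in aorta, and neighbours overlapped throughout. Klf2 in aorta was 6.02 ± 0.40 (SD, n = 3) in KO on chow, 5.85 ± 0.44 in WT on chow, 5.74 ± 0.12 in WT on HFD and 5.72 ± 0.30 in KO on HFD, and in muscle 6.48 ± 0.15, 6.36 ± 0.15, 6.57 ± 0.32 and 6.35 ± 0.42, again with overlap between all neighbours.

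Whether HFD altered these factors was asked within pairs of arrays of the same genotype, tissue and experiment, 6 pairs a tissue. No member passed the threshold for HFD against chow in aorta or in muscle, in WT, in KO or in the mean of both (limma). Over all probes the mean of both genotypes called 0.0309% in aorta and 0.288% in muscle, so that few genes of any kind were called with this number of arrays. In muscle KO alone 0.00389% were called, and in the other single groups 0%. At an unadjusted p of 0.05, 2 of 9 members passed in aorta (15.1% of probes) and 1 of 9 in muscle (16.4% of probes). By genotype the unadjusted counts were 0 in aorta WT (background 5.77%), 2 in aorta KO (11.3%), 1 in muscle WT (12.1%) and 1 in muscle KO (8.5%). The methods' t-test, a one-sample test of the ratios, called 0 probes after Benjamini-Hochberg adjustment in either genotype and tissue.

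Erg and Fli1 gave the largest aortic differences on HFD. Erg ran from -3.02 through a median of -2.10 to -1.50 on chow and from -4.83 through -3.60 to -2.54 on HFD in aorta, with overlap, and was lower on HFD in 5 of 6 pairs. The difference was -1.47 ± 0.38 (SE) on the log2 scale, a 2.77-fold lower level (limma, unadjusted p = 0.00697, adjusted p = 0.207). It was -1.88 in KO and -1.06 in WT, and -1.48, -0.92 and -2.01 without experiments 1, 2 and 3 in turn. In muscle Erg was lower on HFD in 5 of 6 pairs, but WT of experiments 1 and 2 was close to 0, at -0.05 and -0.003. KO of experiment 1 was higher on HFD, at 0.29. The muscle mean was -0.45 ± 0.24 (limma, adjusted p = 0.409). Averaged over both tissues of a pool, a fit added after the values were seen, the difference was -0.96 ± 0.22 (adjusted p = 0.0846), where 0.744% of probes were called. Fli1 in aorta went from 3.07 through a median of 4.10 to 4.50 on chow to 2.06 through 3.23 to 3.70 on HFD, a difference of -0.98 ± 0.36 (adjusted p = 0.291) that was -0.51 without experiment 1. The mean of the platelet and megakaryocyte genes was lower on HFD in 5 of 6 aortic pairs (median -1.15), and its part in the Fli1 value was not tested.

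Gata2 (-0.91), Sox17 (-0.64), Sox18 (-0.48), Sox7 (-0.21) and Klf2 (-0.21) also had mean aortic differences below 0, with adjusted p of 0.340 to 0.838 (limma). Single experiments moved these values: without experiment 1 they were -0.42, -0.33, -0.076, 0.23 and 0.050, and without experiment 3 they were -1.42, -1.03, -1.005, -0.86 and -0.38, in the same order. On its other probe Klf2 was at 0.06, above 0, and Gata6 was at 0.02 (adjusted p = 0.976). The pan-endothelial genes moved with them: their mean was lower on HFD in 5 of 6 aortic pairs (median -0.78) with 0 of 20 called, while in muscle the median was 0.00. The 8 fibroblast genes were higher on HFD in 6 of 6 aortic pairs (median of their mean 0.40) and the adipocyte genes lower in 6 of 6 (median -3.02). The part of these in the members' differences was not tested. On the scale of the pan-endothelial genes, which moved aortic diet differences up by 0.60, Sox7, Sox18, Klf2 and Klf4 turned to higher on HFD (0.39, 0.12, 0.40 and 0.33) and none was called.

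**Figure D3:**
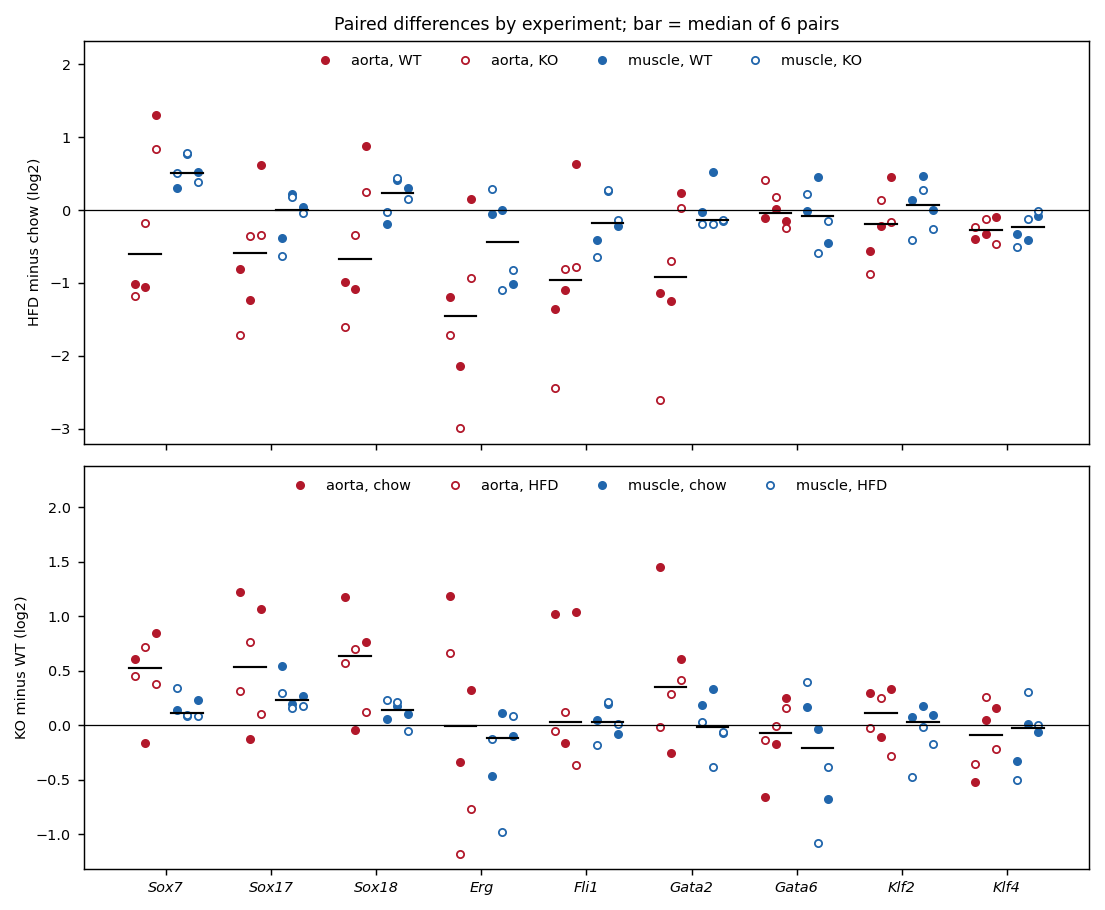
Difference in log2 level for each of the 9 genes in aorta (red) and muscle (blue), HFD minus chow above (filled for WT, open for KO) and KO minus WT below (filled for chow, open for HFD), where each point is 1 of 6 pairs of arrays and the bar their median. For diet, Klf4 lies below 0 in all 12 pairs and Sox7 lies above 0 in all 6 muscle pairs, while the aortic points of the other genes spread over more than 1 unit for Erg, Fli1, Gata2 and the SoxF genes.

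In muscle Sox7 was the member with the clearest shift. Its level was 4.23, 4.35 and 4.14 in WT on chow, 4.54, 5.12 and 4.67 in WT on HFD, 4.37, 4.43 and 4.37 in KO on chow and 4.87, 5.21 and 4.75 in KO on HFD. All 6 HFD arrays lay above all 6 chow arrays, as they did for 1.01% of probes, and higher in all 6 pairs held for 5.62%. The difference was 0.54 ± 0.15 (SE) on the log2 scale, 1.46-fold, with an unadjusted p of 0.0087 and an adjusted p of 0.169 by limma, so that it did not pass over all probes. It was 0.53 in WT, 0.55 in KO and 0.61 without experiment 1. In aorta the pairs of Sox7 disagreed, from -1.17 to 1.31, and the mean turned from -0.21 to 0.23 without experiment 1. The other SoxF genes had muscle differences of 0.18 (Sox18) and -0.10 (Sox17).

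Klf4 was lower on HFD in every pair, by small amounts. In aorta it was 5.20, 5.30 and 5.14 in WT on chow against 4.81, 4.97 and 5.05 on HFD, and 4.68, 5.34 and 5.30 in KO on chow against 4.45, 5.22 and 4.82 on HFD. In muscle it was 5.28, 5.59 and 5.51 in WT on chow against 4.95, 5.18 and 5.44 on HFD, and 4.96, 5.60 and 5.46 in KO on chow against 4.44, 5.48 and 5.44 on HFD. The aortic WT groups did not overlap, while the KO groups and both muscle comparisons did. The pairs ran from -0.47 to -0.09 in aorta and from -0.51 to -0.02 in muscle. The mean differences were -0.27 ± 0.17 (SE, adjusted p = 0.48, limma) and -0.24 ± 0.15 (adjusted p = 0.457), and neither passed even unadjusted. Lower in all 12 pairs held for 0.732% of probes. Without experiment 1 the means were -0.25 and -0.16. Klf2 was lower on HFD in 4 of 6 aortic pairs and 2 of 6 muscle pairs, with means of -0.21 and 0.03. Its other probe gave means of the opposite sign, 0.06 and -0.12. A difference between Klf2 and Klf4 was not tested.

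No gene of the Klf2 and Klf4 lists was called for diet in either tissue. Among the induced genes Nos3 was at -0.82 and Nqo1 at -0.76 in aorta, and Cyp1b1 at 1.53 and Ass1 at -0.80 in muscle. Among the repressed genes Edn1 was at -1.12 and F3 at 1.09 in aorta, and Ccl2 at 1.98 (adjusted p = 0.109) in muscle. Macrophage genes were higher on HFD in 5 of 6 muscle pairs and fibroblast genes in 6 of 6, with medians of 2.30 and 1.26 for the mean of each list, and their part in the Ccl2 value was not tested.

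The diet differences were not shown to differ between tissues or genotypes. Aorta minus muscle, the HFD effect differed by -0.83 ± 0.31 (SE) for Fli1 (limma, adjusted p = 0.385), by -1.02 for Erg (adjusted p = 0.467), by -0.88 for Gata2 and by -0.76 for Sox7. Without experiment 1 these were -0.56, -0.75, -0.43 and -0.38. At an unadjusted p of 0.05, 2 of 9 members passed this test (10.7% of probes), and 0.00366% of probes were called. For the difference of the HFD effect between KO and WT, 0 members passed in either tissue, adjusted or unadjusted, with or without experiment 1, against 0% of probes adjusted in both and 2.62% unadjusted in aorta and 4.12% in muscle.

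Galectin-3 deficiency was not accompanied by a called change in any member. KO against WT was compared on chow, on HFD and in the mean of both, in each tissue, and 0 of 9 members passed in these 6 contrasts, adjusted or unadjusted (limma). This fit and its SEs ignored the pairing of KO and WT arrays on a slide, whose deviations from group means correlated at 0.07 to 0.62. With a block of experiment 0 members were called after adjustment, and the unadjusted count with that block is not reported here. Of all probes, 0.0116% on chow, 0.00387% on HFD and 0.0116% in the mean were called in aorta, and 0% in muscle. Unadjusted, these shares were 4.41%, 1.15% and 3.4% in aorta and 2.42%, 3.15% and 3.26% in muscle. The largest mean differences in aorta were those of the SoxF genes, 0.56 ± 0.35 (SE) for Sox17, 0.55 ± 0.31 for Sox18 and 0.47 ± 0.39 for Sox7. In muscle the same genes were at 0.27 ± 0.18 for Sox17, 0.12 ± 0.18 for Sox18 and 0.16 ± 0.16 for Sox7. Their signs ran the same way in most of the pairs, each matched for tissue, diet and experiment. Sox7 and Sox17 were higher in KO in 6 of 6 muscle pairs, by 0.08 to 0.34 and by 0.15 to 0.55, as were 3.49% of probes, and in 5 of 6 aortic pairs. These counts hold for the probes used. On its other probes Sox17 had the opposite sign in muscle, at -0.02 and -0.46. In aorta the other probe tested gave 0.80. A count of 11 or more of 12 pairs held for 1.42% of probes, and Sox18 was higher in 10 of 12. Sox7 and the deleted gene Lgals3 lie on the same chromosome, 14, while Sox17 lies on chromosome 1. The part of this location in the Sox7 values was not tested. Erg (-0.02 in aorta and -0.25 in muscle), Gata6 (-0.09 and -0.27), Klf4 (-0.11 and -0.10) and Klf2 (0.08 and -0.05) had differences smaller than their standard errors. Without experiment 1 the SoxF differences were 0.45, 0.38 and 0.44 in aorta and 0.20, 0.11 and 0.12 in muscle, for Sox17, Sox18 and Sox7.

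Within the aortic groups, several lineage factors varied from array to array together with the pan-endothelial genes. The share of all genes that did so was not computed, so this is not shown to be particular to the members. Deviations of each array from its group mean were compared with those of the pan-endothelial mean over 12 arrays a tissue. In aorta Sox17 gave Pearson's r of 0.96 (exact permutation p = 0.00154 within groups) and Spearman's rho of 0.92 (permutation p = 0.00231), and Gata2 gave r of 0.93 (p = 0.00154, exact permutation) and rho of 0.94. These 2 passed adjustment over 36 relations (adjusted permutation p = 0.0278 each). Without the 2 arrays farthest from the median, r was 0.94 and 0.93, and within slides it was 0.94 and 0.93. The permutations shuffled arrays across slides, although arrays of an experiment shared a slide, and no p was computed within slides. Sox7 (r 0.94), Fli1 (0.92) and Sox18 (0.84) followed with an adjusted permutation p of 0.0667, and Erg stood at r of 0.70 with 0.306. The flow-responsive Klf2 (0.18) and Klf4 (0.35) and Gata6 (-0.10) had the lowest r, but within slides Klf2 stood at 0.74, as high as Erg (0.74), and Klf4 and Gata6 at -0.27 and -0.54. In muscle no member passed, with Fli1 at r of 0.81 (adjusted permutation p = 0.213) and Klf4 at 0.77 (0.146). Erg (-0.44, and -0.75 within slides) and Gata6 (-0.19) were below 0 there, so the sign for Erg was opposite to that in aorta. No member passed against the immediate early genes in either tissue.

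**Figure D4:**
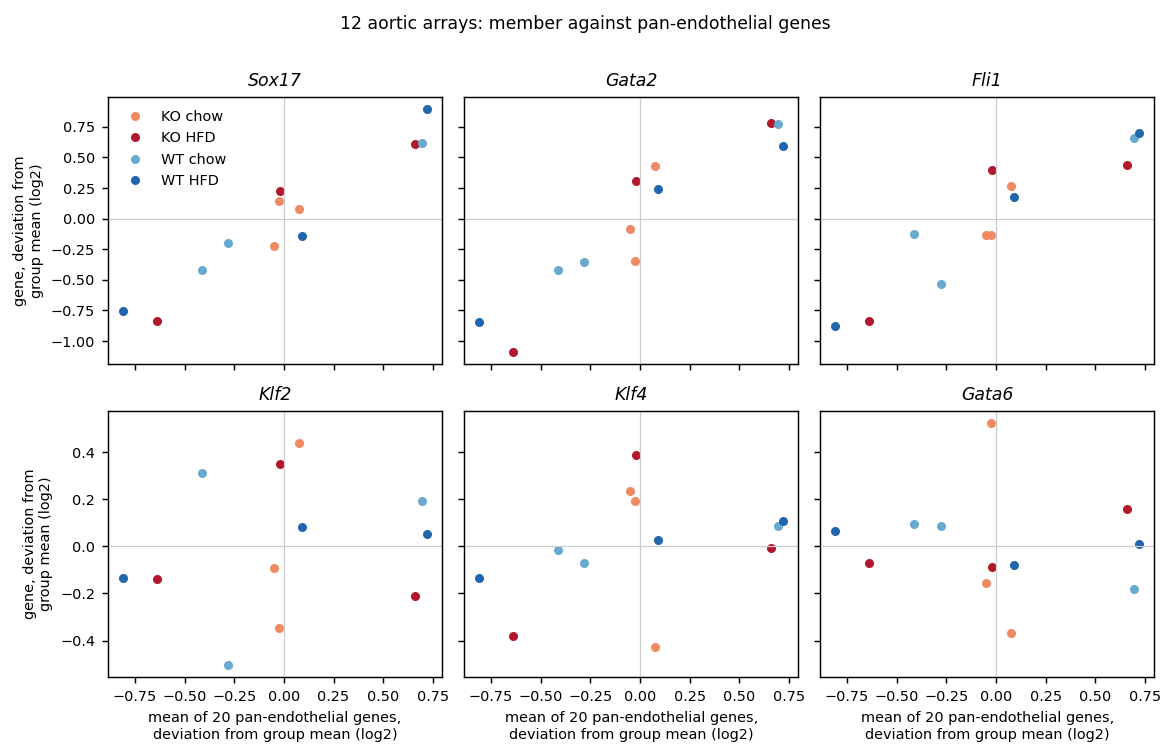
Deviation of each member's log2 level from its group mean against the same deviation of the mean of 20 pan-endothelial genes, over the 12 aortic arrays, for 6 of the 9 genes and coloured by genotype and diet. Sox17 and Gata2 lie along a line (Pearson's r 0.96 and 0.93), whereas Gata6, Klf2 and Klf4 scatter (-0.10, 0.18 and 0.35), although Klf2 reaches 0.74 when deviations are taken within slides.

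The genes whose pattern over the 24 arrays was most like that of each member were ranked by Pearson's r among 14146 genes, as a description in which the difference between tissues carries most of the likeness. For Sox17 these were Fnbp1l (0.98), Esam (0.97) and Lrrc8c (0.97). For Sox18 they were Tmem88 (0.98), Cd300lg (0.97) and Unc45b (0.97), and for Sox7 Rasgrp3 (0.96), Tmem44 (0.95) and Adcy4 (0.95). Erg was most like Cnksr3 (0.94) and Nlk (0.93), and Fli1 like Sgk1, 4930486L24Rik and Arhgap25 (0.98 each). Gata2 was most like Grrp1 (0.98), C130074G19Rik (0.98) and F11r (0.97), and stood at r of 0.96 with Fli1. Gata6 was most like Slc4a10, Plcxd3 and Cfhr2 (0.98 each). Klf2 was most like Ehd1, Gng11 and H2-K1 (0.94 each), and Klf4, which varied least with tissue, reached 0.88 with Zfp944, 0.85 with Ddrgk1 and 0.85 with Srsf7.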

How the data were processed

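RNA of sorted CD105+/CD45- cells was amplified, labelled with Cy3 and hybridised to single-colour Agilent Whole Mouse Genome arrays, 24 in all. Per the file headers, the scanner intensity of each spot was background-subtracted and detrended by Feature Extraction 10.5.1.1, and the deposited files hold those processed intensities, the raw medians and 0 or 1 flags for dim, saturated and outlier spots. A normalized matrix deposited beside them holds log2 values that differ from the log2 processed intensities by a constant for each array. How these constants were set is not given in the sources used here. The 75th percentile of the matrix was 12.13 on the aortic arrays and 11.90 to 11.91 on the muscle arrays. It was thus nearly level within a tissue, with an offset between tissues. The matrix served as an alternative scaling only, and is not independent of the scaling to the 75th percentile.

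From the scanner files, control and outlier spots were left out, the log2 of each array's 75th percentile was subtracted, and spots of a probe were averaged. Of 41174 probes, 27198 matched 18539 symbols through RefSeq accessions. A probe was tested where all arrays of some group read it well above background, which left 25856 in aorta, 25675 in muscle and 27344 for comparisons between tissues. Differences were tested with limma 3.58.1 (R 4.3.3, with data.table version 1.17.8 and jsonlite 2.0.0), by empirical Bayes statistics with Benjamini-Hochberg adjustment over all probes tested and a threshold of 0.05. HFD against chow carried a block for each genotype and experiment, since the study's methods take the ratio of HFD to chow within an experiment. Aorta against muscle carried a block for each pool of animals and KO against WT none, choices made for this re-analysis. The fits were tested on simulated data. Levels are given as mean ± SD and differences as mean ± SE; the number of arrays, 3 a group, limits the precision. Each replicate was a separate pool of animals.

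Correlations of deviations from group means used 1296 permutations within groups, the full set that shuffles experiments. Each member was described on its brightest probe, and up to 4 genes of each other list were named by the size of their difference among those called, or 2 where none was called. The members and the lists were chosen with earlier results of these data known. Pairing came from the labels' experiment number, since arrays of 1 number shared a slide within a tissue and both tissues of a pool came from the same animals. Deviations from group means correlated between HFD and chow arrays of a pair at 0.01 to 0.46 (above 0.1 in 7 of 12), between KO and WT arrays at 0.07 to 0.62 (11 of 12) and between both tissues of a pool at 0.07 to 0.40 (9 of 12). Alternatives were normexp background correction (offset 50, on median signals), quantile normalization, the deposited table, other filters and blocks, other probes (for aorta against muscle only), the methods' t-test and leaving out each experiment. Scaling to the pan-endothelial genes and the fit over both tissues were added after the values were seen. RefSeq promoters of GRCm38.p6 were searched for exact motifs on both strands. Tal1 is not analysed here, and some genes that these rules name are not reported here.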

Additional observations from a re-analysis of the deposited data

How the results depend on the processing

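Across the alternatives run, aorta-minus-muscle differences of the members were rated the same in 94 of 114 values, and the counts were 98 of 108 for diet and 87 of 99 for genotype in aorta and 96 of 108 and 82 of 99 in muscle. In a tested alternative, the same means that direction and call were kept. Experiment 1 alone had no test. Its value was rated the same if it lay within the SD over experiments of the main value, whatever its sign where the main value was not called. On the deposited scale Klf4 stood at 0.010, and on that of the pan-endothelial genes Klf2 at 0.48, Klf4 at 0.83 and Sox18 at 0.043. The members called in aorta against muscle fell from 4 to 2 with quantile normalization, 2 with the deposited table, 1 with the pan-endothelial scaling and 1 to 2 without 1 experiment in WT on chow. They fell from 8 to 3 with that scaling and to 1 to 7 without 1 experiment in WT on HFD, from 8 to 4 with quantile normalization, 5 with the deposited table, 3 with that scaling and 1 to 7 without 1 experiment in KO on HFD, and from 9 to 4 with that scaling over all groups. For diet, genotype and the interactions 0 members were called under all alternatives run, with limma or the methods' t-test, which called 2 members unadjusted in muscle KO (Sox7 and Gata2, against 5.04% of probes) and none elsewhere. The cause of these shifts was not tested.

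Apart from experiment 1 alone and other probes, small differences that were not called changed sign as follows. On the pan-endothelial scale aortic HFD minus chow became 0.40 for Klf2, 0.33 for Klf4, 0.12 for Sox18 and 0.39 for Sox7, and KO minus WT became -0.00436 for Fli1 and -0.19 for Klf2 in aorta and -0.017 for Fli1 and -0.049 for Gata2 in muscle. With normexp, KO minus WT was 0.041 for Erg in aorta and -0.00169 for Gata2 in muscle, and muscle HFD minus chow was 0.00023 for Gata2 and -0.00755 for Klf2. With quantile normalization, muscle KO minus WT was -0.041 for Fli1, -0.075 for Gata2 and -0.023 for Sox18, and HFD minus chow -0.020 for Klf2. With the deposited table muscle KO minus WT was -0.00353 for Gata2. Leaving out 1 experiment, HFD minus chow ran from -0.052 to 0.12 for Gata6, -0.38 to 0.050 for Klf2 and -0.86 to 0.23 for Sox7 in aorta, and from -0.35 to 0.047 for Fli1, -0.13 to 0.028 for Gata2, -0.18 to 0.021 for Gata6, -0.13 to 0.12 for Klf2 and -0.25 to 0.10 for Sox17 in muscle. KO minus WT ran from -0.49 to 0.35 for Erg, -0.24 to 0.058 for Gata6 and -0.23 to 0.059 for Klf4 in aorta, and from -0.048 to 0.088 for Fli1, -0.046 to 0.040 for Gata2, -0.12 to 0.022 for Klf2 and -0.22 to 0.066 for Klf4 in muscle.

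Without the replicate block of pools, Klf4 lost its call between tissues (-0.26, limma, adjusted p = 0.159) and 8 members were called, as with the slide as a random block (adjusted p = 0.304). With a replicate block of experiment 0 members were called for diet or genotype. Over all probes, the mean diet effect called 8 in aorta and 74 in muscle, 50 and 51 without the block, 58 and 276 with the block of experiment, 55 and 221 with normexp, 41 and 247 among probes well above background on every array, 5 and 1 with no filter, 250 and 30 on the pan-endothelial scale, and 0 and 0 without any 1 experiment. Between tissues 15393 probes were called and 7711 with the slide as a random block. The share of these that was higher in aorta was 31.9%, 95% on the pan-endothelial scale, where the all-probe median was 0.81, and 40.7% with the random block. All 9 members were well above background on every array. Erg was the dimmest, with mean levels of -2.94 in aorta and -0.91 in muscle, and the part of dimness in its differences was not tested.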
